A study of Mus musculus with 32 samples.

Results

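The transforming growth factor beta (TGF-β) ligands, their receptors, the latent TGF-β binding proteins and the activin subunit *Inhba* were followed across the cell classes of cultured mouse bone marrow. The set held 10 of the 31053 genes in the deposited matrices, taken by symbol and not by their values: *Tgfb1*, *Tgfb2*, *Tgfb3*, *Tgfbr1*, *Tgfbr2*, *Tgfbr3*, *Ltbp1*, *Ltbp2*, *Ltbp3* and *Inhba*. All 10 were detected. Bone marrow-derived stromal cells from the femurs of Diversity Outbred mice, an outbred stock descended from inbred founder strains, had been differentiated under osteogenic conditions (BMSC-OBs), dissociated and pooled by 4 or 5 mice before single-cell RNA-seq. The data analysed were 16 such pools from 77 mice, each loaded as a single library and sequenced in 2 runs, of which run HGYVNCCX2 was used. No treatment or assigned genotype group separated the pools, though their mice are outbred and differ in genotype. The groups compared are therefore cell classes that share a pool, and cells were not assigned to individual mice here. The age of the mice is not given in the sources used here. These are cells in culture after osteogenic differentiation, not cells taken from bone.

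TGF-β is secreted in a latent form, in which the mature dimer stays bound to its own propeptide, and latent TGF-β binding proteins attach that complex to the extracellular matrix. Once released, the ligand binds TGFBR2, which recruits and activates TGFBR1, and Smad2 and Smad3 carry the signal to the nucleus, while the co-receptor betaglycan, encoded by *Tgfbr3*, presents ligand to TGFBR2 and is needed most for TGF-β2. Bone matrix is a large store of latent TGF-β, and osteoblast-lineage cells, osteoclasts and marrow stroma all make or respond to it. INHBA dimerizes to form activin A, a relative of TGF-β that uses its own receptors but the same Smads, and LTBP2 differs from its relatives in that it does not bind latent TGF-β.

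The members lie on separate chromosomes apart from *Ltbp2* and *Tgfb3*, which are both on the minus strand of chromosome 12 (GRCm38), at 84783212 to 84876532 and 86056745 to 86079041. The other genes lie at 25687002 to 25705077 on chromosome 7 (*Tgfb1*, plus strand), 186622792 to 186705989 on chromosome 1 (*Tgfb2*, minus strand), 47353222 to 47414931 on chromosome 4 (*Tgfbr1*, plus strand) and 116084293 to 116175360 on chromosome 9 (*Tgfbr2*, minus strand). *Tgfbr3* lies at 107106570 to 107289629 on chromosome 5 (minus strand), *Ltbp1* at 75005568 to 75392512 on chromosome 17, *Ltbp3* at 5740904 to 5758532 on chromosome 19 and *Inhba* at 16011851 to 16031621 on chromosome 13 (all plus strand). RefSeq promoters on GRCm38.p6, which run from 250 bases before to 50 after a start, were at hand for 8 of the 10 members, *Tgfb3* and *Tgfbr3* being those without one. The 100 bases before the start are shown 5′ to 3′ for *Tgfb1*, *Tgfb2* and *Inhba*, shown as examples of members whose highest mesenchymal means lie in the Ocy gate (*Tgfb1* and *Tgfb2*) or the LMP gate (*Inhba*), with TATAAA boxes and GGGCGG boxes (CCGCCC on the other strand) in capitals.
Tgfb1, chr7:25686902-25687001, plus strand: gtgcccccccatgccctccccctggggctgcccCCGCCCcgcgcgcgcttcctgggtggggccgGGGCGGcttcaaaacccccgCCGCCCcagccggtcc
Tgfb2, chr1:186705990-186706089, minus strand: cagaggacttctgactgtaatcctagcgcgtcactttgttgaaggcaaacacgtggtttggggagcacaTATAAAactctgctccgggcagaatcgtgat
Inhba, chr13:16011751-16011850, plus strand: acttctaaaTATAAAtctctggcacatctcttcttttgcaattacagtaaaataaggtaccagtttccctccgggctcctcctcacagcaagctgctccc

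The *Tgfb1* promoter was 77.0% G or C over its 300 bases and held 6 GGGCGG boxes on either strand and no TATAAA. The *Tgfb2* promoter (54.3% G or C) held 1 TATAAA, beginning at -31 from the start, and the *Inhba* promoter (47.7% G or C) held 1, beginning at -91, and neither held a GGGCGG. Of 32851 RefSeq promoters of the same length, 13.6% held TATAAA and 35.7% held GGGCGG, both strands searched. These are matches of letters, and nothing in these data tests whether a factor binds them.

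Run HGYVNCCX2 gave 3460 to 9429 barcodes and 53990642 to 100777353 unique molecular identifiers (UMIs) per pool, and 83906 cells were kept. Different pools shared 0.0461% to 0.434% of their barcodes. Marker genes, none of them a member, placed 65753 cells on a mesenchymal side and 14644 on a leukocyte side, and 46248 cells in 12 classes. The mesenchymal classes carry the study's names: late mesenchymal progenitors (LMP), marrow adipogenic lineage progenitors (MALP), osteoblast progenitors (OBP), mature osteoblasts (OB1 and OB2) and osteocyte-like cells (Ocy), with 3604 to 9240 cells each. A class is a range of marker scores, and 6.13% to 19.98% of the cells of a mesenchymal class lay within 0.1 of a gate limit. Ocy-gated cells also carried OB1 and OB2 markers (median log level 1.65 and 1.62, against 1.78 for their own list), and osteoclast-gated cells carried macrophage markers at a higher median level (1.20) than their own (1.13), with 3 of 7 of their own detected in the median cell. Clusters made without the members sorted some cells differently: 2177 of 9056 MALP-gated cells lay in clusters named LMP, and 3670 of 5069 OB1-gated and 2107 of 5160 OB2-gated cells in clusters named Ocy. A further 2134 OB2-gated cells lay in clusters named OBP. Of 558 osteoclast-gated cells, 387 lay in clusters named macrophage and 106 in a cluster named osteoclast. Levels are UMIs of a gene per 10,000 UMIs of a class in a pool, for classes of at least 20 cells, and since 3′ UMI counts depend on each transcript, they are compared between classes and not between genes.

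**Figure D1:**
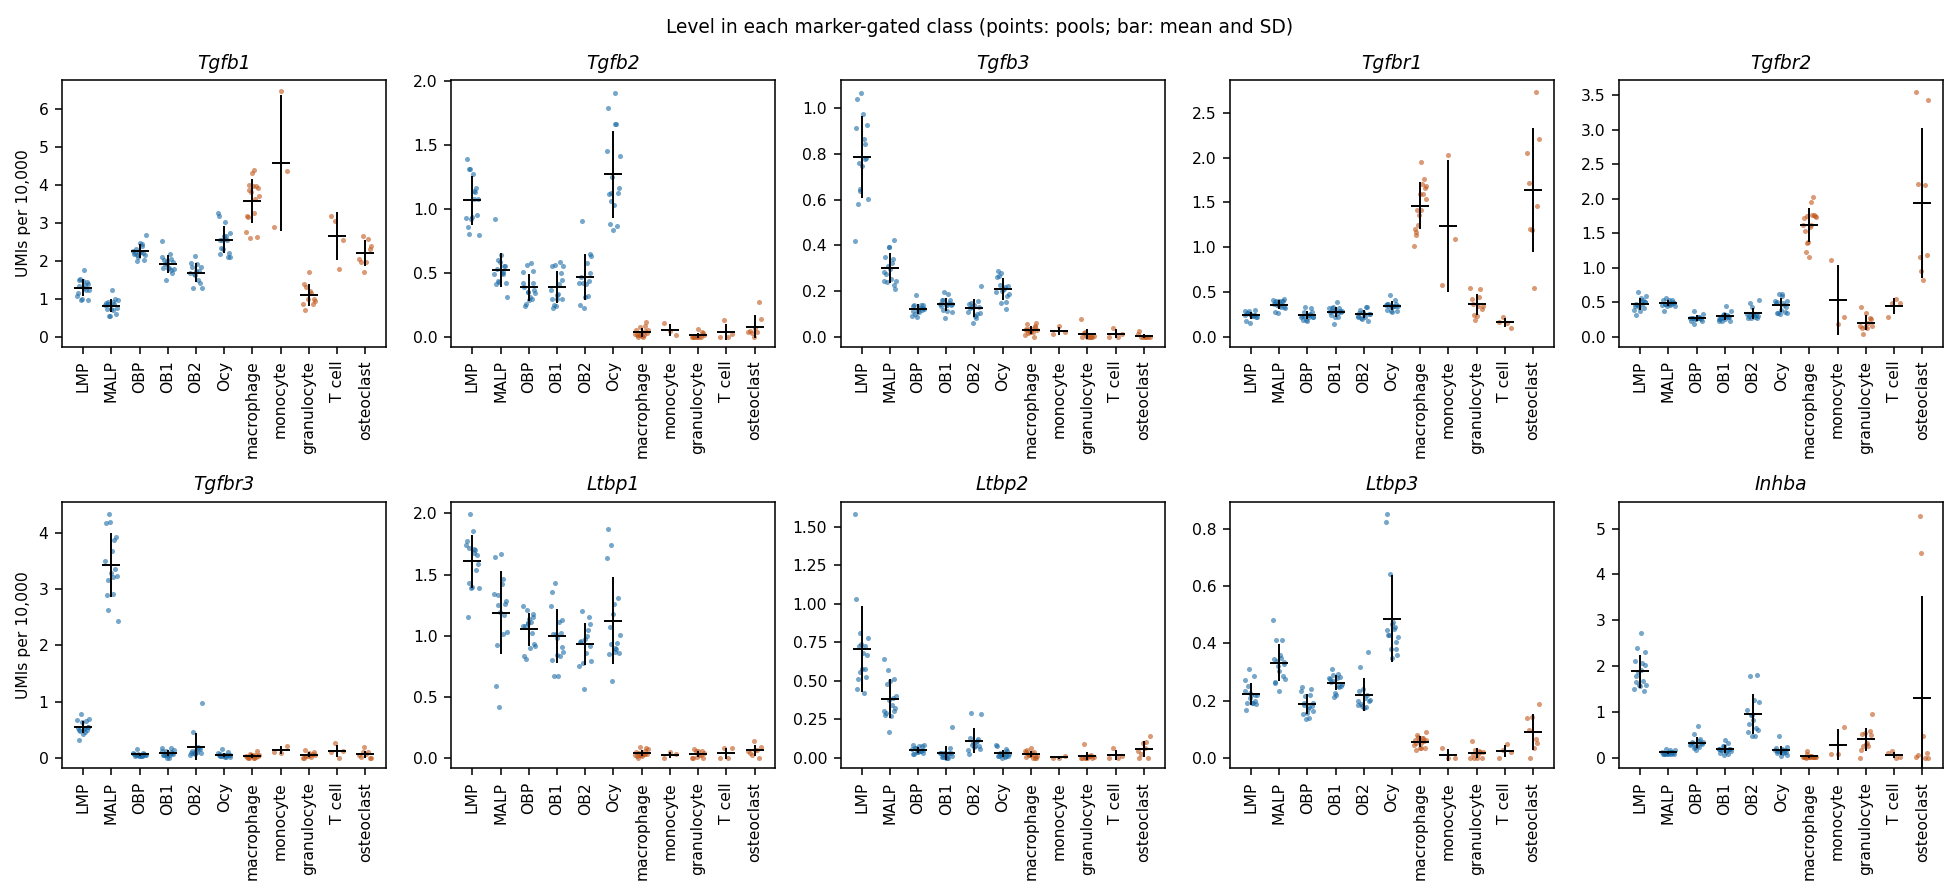
Levels of the 10 members (UMIs per 10,000, a linear axis for each gene) in 6 mesenchymal classes (blue) and 5 leukocyte-side classes (orange); points are pools, and the horizontal tick and vertical bar are the mean and SD over pools. *Tgfbr3* stood highest in MALP-gated cells and *Inhba* in LMP-gated cells, *Tgfbr1* and *Tgfbr2* stood highest in macrophage- and osteoclast-gated cells, and the SD bar of *Inhba* in osteoclast-gated cells reaches below 0, where it is cut off.

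Between the sides, 7 members were higher in mesenchymal cells (*Tgfb2*, *Tgfb3*, *Tgfbr3*, all 3 *Ltbp* genes and *Inhba*) and 3 were higher in leukocyte-side cells (*Tgfb1*, *Tgfbr1* and *Tgfbr2*). The signalling receptors thus stood opposite to the co-receptor. In this comparison 83.9% of 13551 genes were called (45.3% higher in mesenchymal and 38.6% higher in leukocyte-side cells), so that a call alone does not set a member apart, and the sizes carry the description.

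Among the ligands, *Tgfb1*, the isoform made by most blood cells, ranged over pools from 1.21 to 2.07 (median 1.75) UMIs per 10,000 on the mesenchymal side and from 2.20 to 3.601 (median 2.69) on the leukocyte side. Every pool was higher on the leukocyte side, and the log2 fold change of mesenchymal against leukocyte-side cells was -0.66 ± 0.0709 (SE; edgeR quasi-likelihood test blocked on pool, Benjamini-Hochberg adjusted p = 3.30e-08). *Tgfb2* and *Tgfb3* went the other way: *Tgfb2* ranged from 0.481 to 1.07 (median 0.640) in mesenchymal and from 0.0111 to 0.0949 (median 0.0366) in leukocyte-side cells, and *Tgfb3* from 0.231 to 0.426 and from 0.0123 to 0.0555. Their log2 fold changes were 4.08 ± 0.192 and 3.48 ± 0.120 (SE; adjusted p = 4.87e-14 and 3.05e-16).

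The receptors split. *Tgfbr1*, the type I kinase, lay between 0.214 and 0.324 (median 0.267) UMIs per 10,000 in mesenchymal cells and between 0.861 and 1.74 (median 1.19) in leukocyte-side cells, a log2 fold change of -2.15 ± 0.0794 (SE; edgeR adjusted p = 8.78e-16). *Tgfbr2*, the type II kinase, lay between 0.303 and 0.503 and between 0.680 and 1.64, with -1.51 ± 0.0928 (adjusted p = 3.91e-12). *Tgfbr3*, the co-receptor, lay between 0.247 and 1.20 and between 0.00481 and 0.141, with 3.67 ± 0.250 (adjusted p = 2.25e-11). Both kinases were thus lower in mesenchymal cells in 16 of 16 pools, and the co-receptor was higher in 16 of 16.

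The latent binding proteins were all higher on the mesenchymal side. *Ltbp1* had the largest difference of the 10 members, with 0.844 to 1.57 (median 1.15) UMIs per 10,000 against 0.0210 to 0.101 (median 0.0412) and a log2 fold change of 4.77 ± 0.126 (SE; edgeR adjusted p = 6.99e-18). *Ltbp2* and *Ltbp3* differed by 3.39 ± 0.204 and 2.37 ± 0.102 (SE; adjusted p = 2.88e-12 and 1.01e-14). *Inhba* ranged from 0.386 to 1.44 (median 0.681) in mesenchymal and from 0.0311 to 1.39 (median 0.0936) in leukocyte-side cells, with overlap between the sides and a log2 fold change of 2.36 ± 0.415 (SE; edgeR adjusted p = 2.70e-05). Without pools 5 and 6, the 2 pools in which *Inhba* was higher on the leukocyte side, the log2 fold change was 2.85.

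**Figure D2:**
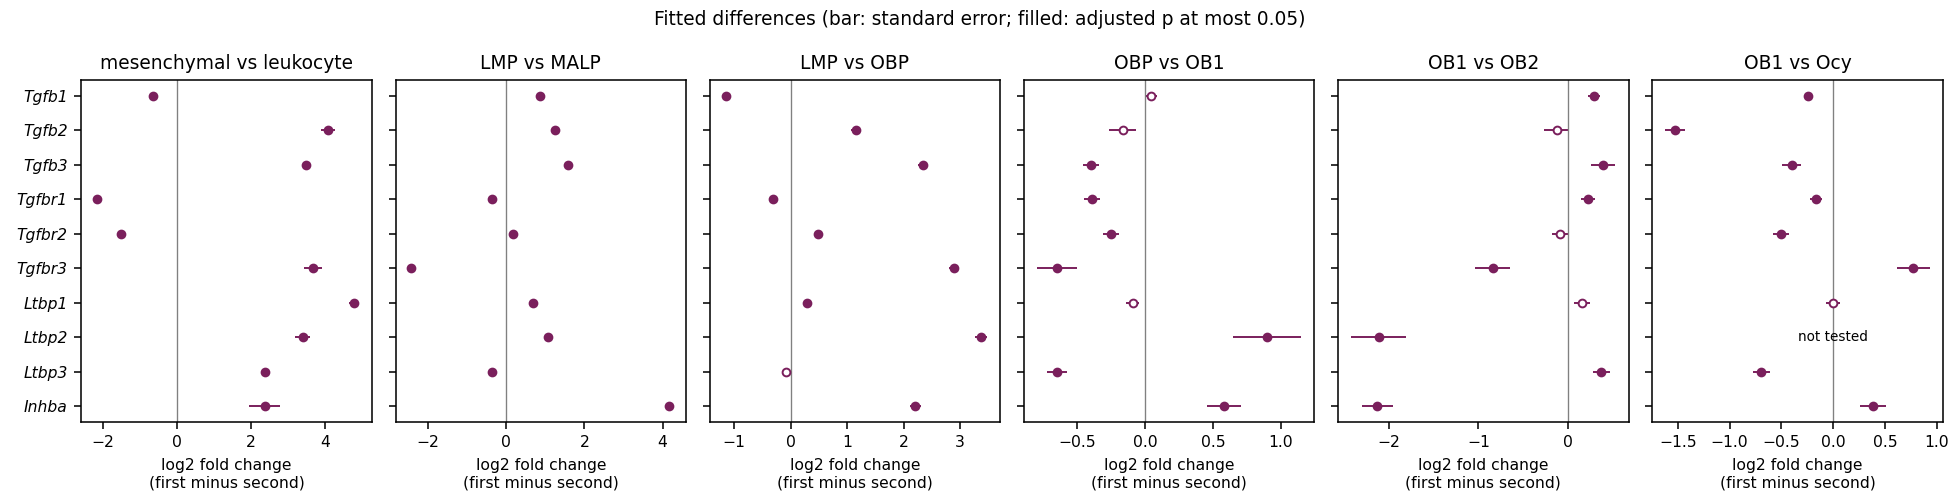
Fitted log2 fold changes of the 10 members (horizontal axis, first-named class minus second; bars are the standard error) in 6 comparisons; filled points passed an adjusted p of 0.05. *Tgfb1* is left of 0 between the sides and between LMP- and OBP-gated cells and right of 0 between LMP- and MALP-gated cells, and *Inhba* reaches 4.16 in the latter.

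Free RNA from lysed cells gives every droplet some UMIs of abundant genes, so leukocyte-side levels were set against 4 stromal genes outside the gates, *Col1a1*, *Ibsp*, *Sparc* and *Serpinf1*, in the same pool. The leukocyte-side level of these 4 was 1.41% to 7.80% of the mesenchymal level over the pools, with medians of 2.31% to 3.99%. *Ltbp1*, with a median of 3.26%, was above all 4 reference genes in 3 of 16 pools, and *Tgfb2* (median 5.12%) in 10. *Tgfbr3* (median 6.85%) was above all 4 in 11 pools, *Ltbp2* (7.85%) in 14 and *Tgfb3* (8.24%) in 15.

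*Ltbp3*, which binds latent TGF-β as *Ltbp1* does, stood clear of the reference genes: its leukocyte-side level was 10.4% to 26.8% (median 21.1%) of the mesenchymal level and above all 4 in 16 of 16 pools. In macrophage-gated cells alone, 129 *Ltbp3* UMIs were counted where the highest reference ratio of each pool would have given 27.1, and *Ltbp3* was again above all 4 genes in 16 of 16 pools. Of the other members low on this side, *Tgfb3* was above them in 14 of 16 pools of these cells (58 UMIs against 31.0), *Ltbp2* in 11 (66 against 32.6), *Tgfbr3* and *Inhba* in 8, *Tgfb2* in 6 and *Ltbp1* in 2. On the whole leukocyte side *Inhba* was above all 4 in 15 of 16 pools. *Ltbp3* was above all 4 in 7 of 8 pools of osteoclast-gated cells (52 UMIs) and 7 of 11 of granulocyte-gated cells (13 UMIs). In T cell-gated cells it was so in 3 of 4 pools (6 UMIs) and in monocyte-gated cells in 1 of 3 (3 UMIs). In the other direction, the leukocyte genes *Lyz2*, *Cd74*, *Ctss* and *Fcer1g* stood in mesenchymal cells at medians of 1.21% to 1.94% of their leukocyte-side level, whereas *Tgfbr1* and *Tgfbr2* stood at 22.5% and 34.7%.

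**Figure D3:**
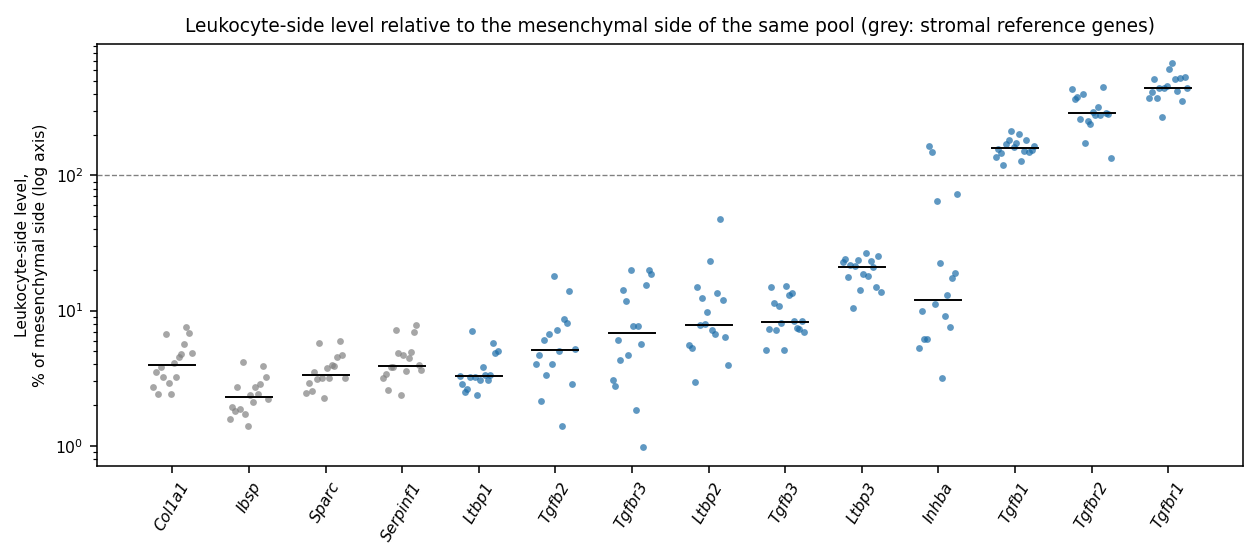
Leukocyte-side level as a percentage of the mesenchymal level of the same pool (log axis; points are the 16 pools, black lines medians, the dashed line 100%) for 4 stromal reference genes (grey) and the 10 members (blue). *Ltbp1* lies among the reference genes, *Ltbp3* lies above them in every pool, and *Tgfb1*, *Tgfbr2* and *Tgfbr1* lie above 100%.

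Over the classes, *Tgfb1* had its highest mean in monocyte-gated cells (4.57 ± 1.80 UMIs per 10,000, SD, n = 3 pools), followed by macrophage- (3.57 ± 0.575, n = 16), T cell- (2.65 ± 0.634, n = 4), Ocy- (2.56 ± 0.358, n = 16), OBP- (2.25 ± 0.178, n = 16) and osteoclast-gated cells (2.20 ± 0.331, n = 8). Of the 11 classes ordered here it was lowest in MALP-gated cells, at 0.818 ± 0.177. B cell-gated cells, left out of the order, reached 20 cells in 2 pools, at 0.282 and 1.325. Neighbours in this order were compared within pools on log2(level + 0.05) by an exact sign-flip permutation test, two-sided, and over the 10 genes 96 pairs of neighbours were tested, of which 23 passed after Benjamini-Hochberg adjustment. For *Tgfb1* the steps from Ocy to OBP (adjusted p = 0.00332, higher in 13 of 16 pools), from OB1 to OB2 (0.0285), from OB2 to LMP (0.00130) and from granulocyte to MALP (0.0205) passed, and the order above Ocy did not. With 3 or 4 pools the smallest p the test allows is 0.25 or 0.125.

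*Tgfb2* was highest in Ocy-gated cells (1.27 ± 0.340, SD, n = 16) and next in LMP-gated cells (1.07 ± 0.191), a step that did not pass (adjusted p = 0.161, exact permutation test, higher in 11 of 16 pools). The next step, from LMP to MALP (0.523 ± 0.134), passed with 16 of 16 pools (adjusted p = 0.000419). With classes taken from clusters, the Ocy mean of *Tgfb2* was 0.639. *Tgfb3* was highest in LMP-gated cells (0.787 ± 0.179), and each step down to MALP (0.299 ± 0.0651), Ocy (0.210 ± 0.0478) and OB1 (0.142 ± 0.0285) passed. In leukocyte-side classes both ligands were at or below 0.0778 UMIs per 10,000 on average.

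*Tgfbr1* and *Tgfbr2* shared their leading classes. *Tgfbr1* was at 1.64 ± 0.688 (SD, n = 8) in osteoclast-gated and 1.46 ± 0.264 (n = 16) in macrophage-gated cells, and *Tgfbr2* at 1.94 ± 1.09 and 1.62 ± 0.243. Neither of these steps passed (adjusted p = 0.933 and 0.923, exact permutation tests, 4 of 8 pools higher in each). Within the mesenchymal classes *Tgfbr1* stayed between means of 0.238 in OBP- and 0.358 in MALP-gated cells, and *Tgfbr2* between 0.270 in OBP- and 0.481 in MALP-gated cells. Of the steps tested between neighbours among them only that of *Tgfbr1* from Ocy to OB1 passed. For *Tgfbr2* the T cell gate lay between Ocy (0.459) and OB2 (0.340), so these were not compared in this test.

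*Tgfbr3* was set apart by MALP-gated cells, where it ranged from 2.43 to 4.33 (median 3.32) UMIs per 10,000. LMP-gated cells came next with 0.324 to 0.780 (median 0.532), and no other class had a mean above 0.202. The steps from MALP to LMP (16 of 16 pools) and from LMP to OB2 (13 of 14) passed, with adjusted p = 0.000419 and 0.00195 in exact permutation tests. In OB2-gated cells 2 pools stood above the rest, pool 18 at 0.970 and pool 6 at 0.458, against a median of 0.118.

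Among the latent binding proteins, *Ltbp1* was broadly present in mesenchymal cells, from 1.61 ± 0.214 (SD, n = 16) in LMP- to 0.932 ± 0.172 (n = 14) in OB2-gated cells, and only the step from LMP to MALP passed there. *Ltbp2* was narrower, with 0.710 ± 0.279 in LMP-, 0.385 ± 0.126 in MALP- and 0.114 ± 0.0794 in OB2-gated cells and at most 0.0594 elsewhere. Its steps from LMP to MALP and from MALP to OB2 passed in every pool. *Ltbp3* led in Ocy-gated cells (0.486 ± 0.153), above MALP-gated cells (0.332 ± 0.0644) in 16 of 16 pools (adjusted p = 0.000419, exact permutation test), and was lowest of the mesenchymal classes in OBP-gated cells (0.188 ± 0.0355). With classes from clusters its Ocy mean was 0.309.

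*Inhba* led in LMP-gated cells, at 1.46 to 2.73 (median 1.84) UMIs per 10,000, and OB2-gated cells followed among the mesenchymal classes at 0.476 to 1.81 (median 0.882). OBP-gated cells stood at 0.336 ± 0.127 (SD, n = 16) and MALP-gated cells lowest, at 0.122 ± 0.0362. In granulocyte-gated cells it was at 0.406 ± 0.256 (n = 11), and the step from OB2 to granulocyte passed (adjusted p = 0.0117, exact permutation test, higher in 10 of 11 pools), while no later step did. In osteoclast-gated cells the mean of 1.304 came from pools 5 and 6, and the median was 0.0878. By that mean the osteoclast gate lay between LMP and OB2 in the order. The steps from LMP to osteoclast (adjusted p = 0.144, higher in 6 of 8 pools) and from osteoclast to OB2 (0.696) did not pass the exact permutation test. LMP and OB2 were not neighbours and were not compared.

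Shares of cells with a UMI follow depth, and the median cell held 17547.5 UMIs in the LMP, 8595.5 in the MALP and 5503 in the macrophage gate, so each cell was also thinned to 2000 UMIs. Then 48.0% ± 6.30 (SD, n = 16) of MALP-gated cells had a *Tgfbr3* UMI (81.6% unthinned), against 11.1% ± 1.87 of LMP-gated and 0.787% ± 0.697 of macrophage-gated cells, which serve as the background (49.5% and 2.17% unthinned). *Inhba* was found in 23.6% ± 3.30 of LMP-gated cells (62.1% unthinned), 2.41% ± 0.796 of MALP-gated cells (9.18%) and 0.742% ± 0.695 of macrophage-gated cells (2.15%). Thinning left out 1028 of 9240 LMP-gated, 1134 of 9056 MALP-gated and 189 of 3639 macrophage-gated cells as too shallow. For both genes these 3 classes kept the order of their levels.

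LMP-gated and MALP-gated cells, the progenitor class and the adipogenic class of the culture, differed in all 10 members: 7 were higher in LMP-gated cells and 3, *Tgfbr1*, *Tgfbr3* and *Ltbp3*, were higher in MALP-gated cells. Here 73.4% of 11719 genes were called, 34.9% higher in LMP- and 38.5% higher in MALP-gated cells. The largest difference was that of *Inhba*, whose 16 LMP values of 1.46 to 2.73 UMIs per 10,000 lay far above the 16 MALP values of 0.0865 to 0.186, with a log2 fold change of 4.16 ± 0.107 (SE; edgeR adjusted p = 3.42e-18). *Tgfbr3* was its counterpart, at -2.43 ± 0.0653 (SE; adjusted p = 6.94e-18), also without overlap between the pools.

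All 3 ligands were higher in LMP-gated cells, with log2 fold changes of 0.87 ± 0.0572 for *Tgfb1*, 1.24 ± 0.0644 for *Tgfb2* and 1.57 ± 0.101 for *Tgfb3* (SE; edgeR adjusted p = 1.67e-11, 3.14e-13 and 1.05e-11), though the pools' values overlapped for each. *Ltbp1* and *Ltbp2* were higher by 0.69 ± 0.0872 and 1.07 ± 0.106 and *Ltbp3* was lower, at -0.36 ± 0.0631. *Tgfbr1* was lower at -0.37 ± 0.0558. *Tgfbr2*, at 0.18 ± 0.05001 (adjusted p = 0.00291), was the smallest difference, and its sign turned to -0.02 without TMM scaling and to -0.02 with classes taken from clusters, neither of which passed.

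Of 39 further genes of the pathway, chosen as the other ligands, receptors, activators, traps, mediators, inhibitors and targets, 36 were tested between LMP- and MALP-gated cells, and 17 were higher, 14 lower and 5 not called, with a median log2 fold change of -0.03 against -0.03 over all genes. Those with the largest differences were *Itgb8* (3.54), a subunit of the integrin that frees latent TGF-β, the activin and TGF-β family trap *Fstl3* (2.42), thrombospondin *Thbs1* (2.41), which can activate latent TGF-β, and the activin receptor *Acvr2a* (-2.14). With library-size scaling in place of TMM, 27.8% of the calls over all genes were higher in LMP-gated cells, against 47.5%, with a shift of the median of -0.20, and apart from *Tgfbr2* the members kept their directions.

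LMP-gated and OBP-gated cells, the step into the osteoblast lineage, differed in 9 of 10 members, 7 higher in LMP- and 2 higher in OBP-gated cells, where 76.4% of 11918 genes were called (39.6% and 36.8%). *Tgfb1* was the ligand that was higher in OBP-gated cells: its LMP values of 0.958 to 1.76 UMIs per 10,000 (median 1.31) lay below all OBP values of 1.98 to 2.69 (median 2.22), with a log2 fold change of -1.14 ± 0.0578 (SE; edgeR adjusted p = 2.56e-14). *Tgfb2* (1.16 ± 0.0852) and *Tgfb3* (2.34 ± 0.0884) were higher in LMP-gated cells, again with no overlap between the pools. The ligands thus differed in opposite directions over this step.

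*Ltbp2* stood at 0.424 to 1.58 UMIs per 10,000 in LMP-gated cells and at 0.0255 to 0.0850 in OBP-gated cells, a log2 fold change of 3.37 ± 0.111 (SE; edgeR adjusted p = 1.20e-17), and *Ltbp1* differed by 0.29 ± 0.0508. *Tgfbr3* (2.89 ± 0.0900), *Inhba* (2.21 ± 0.0975) and *Tgfbr2* (0.49 ± 0.0553) were higher in LMP-gated cells. *Tgfbr1* was called lower (-0.32 ± 0.0514) but stood at 0.01 without TMM scaling, and *Ltbp3* was not called (-0.08 ± 0.0534, adjusted p = 0.205) but was 0.25, and called, without it. That scaling moved the median of all genes by 0.33, and the share of calls higher in LMP-gated cells from 51.9% to 76.7%. Of the pathway genes 37 were tested, with 21 higher, 11 lower and 5 not called (median log2 fold change 0.34 against 0.02 over all genes), led by *Lrrc32* (4.96), which tethers latent TGF-β to the cell surface, the pseudoreceptor *Bambi* (-3.24), fibrillin *Fbn1* (2.58), to which latent complexes attach, and the TGF-β target *Ctgf* (1.88).

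Between OBP-gated and OB1-gated cells the members differed less: 2 were higher in OBP-gated cells, *Ltbp2* (0.90 ± 0.252) and *Inhba* (0.58 ± 0.128), and 5 were lower, *Tgfb3*, *Tgfbr1*, *Tgfbr2*, *Tgfbr3* and *Ltbp3*, with log2 fold changes between -0.65 and -0.25. In this comparison 54.2% of 10746 genes were called (27.9% higher and 26.3% lower in OBP-gated cells). Mean levels of *Ltbp2* were 0.05385 in OBP- and 0.0319 in OB1-gated cells. Its leukocyte-side class means, B cell-gated cells left out, ran from 0.00472 (monocyte) to 0.0594 (osteoclast). Its step from OBP to OB1 passed the exact permutation test (adjusted p = 0.0134), but not with a pseudocount of 0.5 (0.0930). *Tgfbr3* stood at 0.0631 and 0.0836, against 0.0354 (macrophage) to 0.139 (monocyte). The part of free RNA in these differences was not tested. *Tgfb1* (0.04 ± 0.0418), *Tgfb2* (-0.17 ± 0.0986) and *Ltbp1* (-0.09 ± 0.0483) were not called, and without TMM scaling *Tgfb1* was called at 0.23 and *Tgfbr2* was not. With that scaling 77.3% of calls were higher in OBP-gated cells, against 51.4%, with the median moved by 0.18. Of 32 pathway genes tested, 7 were higher, 16 lower and 9 not called (median -0.18 against 0.01 over all genes), led by *Tgfb1i1* (1.35), the TGF-β-induced adaptor Hic-5, and the activin subunit *Inhbb* (1.11), and by *Skil* (-0.96) and *Tgif1* (-0.95), which both repress Smad-driven transcription.

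The classes with the study's names for mature osteoblasts, OB1 and OB2, were set apart by *Inhba* and *Ltbp2*. The OB2 gate rests on *Bsg*, *Ndrg1*, *Ero1l* and *Mt1*, and no cluster was named OB1 or OB2. *Inhba* ranged from 0.0671 to 0.385 (median 0.188) UMIs per 10,000 in OB1-gated and from 0.476 to 1.81 (median 0.882) in OB2-gated cells, with no overlap and a log2 fold change of -2.13 ± 0.173 (SE, 14 pools; edgeR adjusted p = 1.28e-08). *Ltbp2* had a median of 0.0204 in OB1-gated cells, with 3 of 16 pools at 0, against 0.0931 in OB2-gated cells, and a log2 fold change of -2.11 ± 0.305 (adjusted p = 9.08e-06), with overlapping pools. *Tgfbr3* was also lower in OB1-gated cells (-0.84 ± 0.193).

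*Tgfb1* (0.29 ± 0.0688), *Tgfb3* (0.39 ± 0.137), *Tgfbr1* (0.23 ± 0.0773) and *Ltbp3* (0.38 ± 0.0927) were higher in OB1-gated cells, and *Tgfb2*, *Tgfbr2* and *Ltbp1* were not called. Over all genes 57.0% of 10619 were called (28.2% higher and 28.8% lower in OB1-gated cells). The calls of *Tgfb3* and *Tgfbr1* were lost, and *Tgfbr2* was called at -0.22, without TMM scaling, which took the share of calls higher in OB1-gated cells from 49.5% to 34.0% and the median by -0.12. LMP and MALP markers stood at median log levels of 0.39 and 0.162 in OB2-gated cells and of 0.20 and 0.152 in OB1-gated cells, and 745 of 5160 OB2-gated against 298 of 5069 OB1-gated cells lay in clusters named LMP. *Inhba*, *Ltbp2* and *Tgfbr3*, the members higher in OB2-gated cells, had their highest mesenchymal means in the LMP or MALP gate, as had *Tgfb3*, *Ltbp1*, *Tgfbr1* and *Tgfbr2*, and the part of such cells in these differences was not tested. Of 32 pathway genes, 14 were higher, 15 lower and 3 not called (median -0.17 against -0.00 over all genes), led by *Tgfbi* (-2.19), a matrix protein induced by TGF-β, *Tgfb1i1* (-2.07), *Inhbb* (-1.43) and *Fbn1* (-1.35).

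From OB1-gated to Ocy-gated cells the ligands, both receptor kinases and *Ltbp3* were higher and *Tgfbr3* and *Inhba* lower. *Tgfb2* differed most, with 0.221 to 0.5848 (median 0.352) UMIs per 10,000 in OB1-gated and 0.831 to 1.91 (median 1.15) in Ocy-gated cells and a log2 fold change of OB1 against Ocy of -1.52 ± 0.0938 (SE; edgeR adjusted p = 1.62e-12), without overlap. *Ltbp3* did not overlap either (0.213 to 0.310 against 0.350 to 0.851; -0.69 ± 0.0841, adjusted p = 1.98e-07). In all, 6 of the 9 members tested were higher in Ocy-gated cells and 2 in OB1-gated cells, where 44.5% of 9662 genes were called (23.9% higher in OB1- and 20.7% higher in Ocy-gated cells).

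The remaining differences were smaller: *Tgfb1* -0.24 ± 0.0456, *Tgfb3* -0.40 ± 0.0919, *Tgfbr1* -0.16 ± 0.0581, *Tgfbr2* -0.51 ± 0.0756, *Tgfbr3* 0.77 ± 0.160 and *Inhba* 0.38 ± 0.125 (log2 fold change ± SE). *Ltbp1* was not called (-0.00 ± 0.0682), and *Ltbp2* was too low to be tested. *Tgfbr3* was low in both classes, with mean levels of 0.0836 in OB1- and 0.0572 in Ocy-gated cells. Its leukocyte-side class means, B cell-gated cells left out, ran from 0.0354 (macrophage) to 0.139 (monocyte). The part of free RNA in its difference between OB1- and Ocy-gated cells was not tested. *Inhba* lost its call without TMM scaling (0.23) and without the pool as a block (0.43, edgeR adjusted p = 0.120), *Tgfbr1* lost its call under 4 of the alternatives, and *Ltbp1* was called at -0.16 without TMM scaling, which took the share of calls higher in OB1-gated cells from 53.6% to 23.0% and the median by -0.16. Of 28 pathway genes, 10 were higher, 7 lower and 11 not called (median 0.06 against 0.00), led by *Gdf11* (1.39), an activin-like ligand, *Bambi* (-1.36), *Thbs1* (1.26) and *Ctgf* (-1.07).

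On the leukocyte side, 3 members (*Tgfb1*, *Tgfbr1* and *Tgfbr2*) had enough counts for a test. *Tgfb1* was higher in macrophage-gated than in osteoclast-gated cells in 8 of 8 pools, with 2.601 to 4.39 against 1.72 to 2.66 UMIs per 10,000, ranges that touch only across pools, and a log2 fold change of 0.79 ± 0.117 (SE; edgeR adjusted p = 5.66e-05). *Tgfbr1* (-0.09 ± 0.204) and *Tgfbr2* (-0.08 ± 0.184) were not called, and 29.2% of 7811 genes were, in either direction.

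The receptors' osteoclast-gated values were spread widely, *Tgfbr1* from 0.544 in pool 8 to 2.73 in pool 9 and *Tgfbr2* from 0.816 in pool 8 to 3.54 in pool 1. With a stricter gate the log2 fold changes were -1.24 and -1.10, and with classes from clusters -2.11 and -2.48, all called, but these settings left 2 pools each, and the part of the class definition and that of the pools left cannot be told apart. Of 23 pathway genes 5 were higher in macrophage-gated cells, 3 lower and 15 not called (median 0.17 against -0.01), led by *Tsc22d1* (-1.49), a TGF-β-induced gene, *Emilin1* (1.37), which restrains TGF-β maturation, *Pmepa1* (-1.23), a TGF-β-induced inhibitor, and integrin *Itgb5* (1.22).

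**Figure D4:**
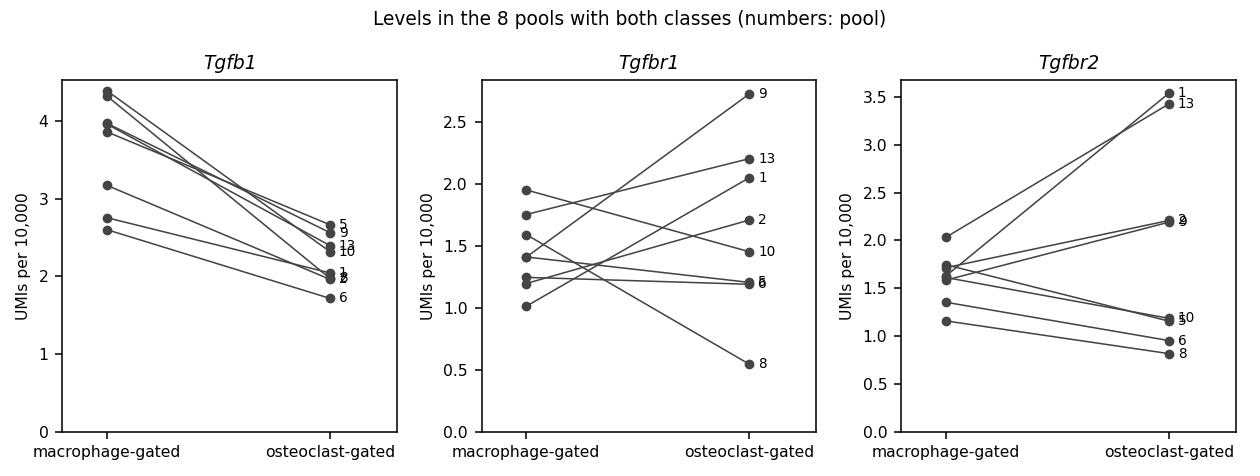
Levels (UMIs per 10,000) of *Tgfb1*, *Tgfbr1* and *Tgfbr2* in macrophage-gated and osteoclast-gated cells; lines join the same pool, and numbers name it. All 8 lines fall for *Tgfb1*, and 4 of 8 rise for each receptor.

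Macrophage-gated and T cell-gated cells could be compared in 4 pools (5, 6, 8 and 14). *Tgfbr1* stood at 1.25 to 1.66 UMIs per 10,000 in the macrophage gate of these pools and at 0.101 to 0.224 in the T cell gate, a log2 fold change of 3.28 ± 0.270 (SE; edgeR adjusted p = 5.95e-07), and *Tgfbr2* at 1.16 to 1.76 and 0.279 to 0.539, with 1.73 ± 0.212 (adjusted p = 1.82e-05). Neither overlapped. *Tgfb1* was not called (0.39 ± 0.244, adjusted p = 0.184), which with 4 pools does not show that the classes were alike, and it was called at 0.52 when genes of low counts were kept. Here 59.0% of 7505 genes were called (31.2% higher in macrophage- and 27.9% in T cell-gated cells), and leaving out each pool in turn gave 3.02 to 3.76 for *Tgfbr1* and 1.61 to 1.86 for *Tgfbr2*, called each time. Of 24 pathway genes 14 were higher in macrophage-gated cells, 2 lower and 8 not called (median 0.93 against -0.01), led by *Tgfbi* (4.18), *Itgb5* (3.35), endoglin *Eng* (3.07), a TGF-β co-receptor, and *Emilin1* (2.54).

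Between the sides, the pathway genes included 25 higher in mesenchymal cells, 11 lower and 2 not called of 38 tested, with a median log2 fold change of 2.05 against 0.10 over all genes. The leading ones were *Nrros* (-5.46), which anchors latent TGF-β on macrophages and microglia, the activin trap follistatin *Fst* (5.01), *Inhbb* (4.87) and *Tgfbi* (-4.76).

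*Inhba* on the leukocyte side was concentrated in few cells of a few pools. Of its 2739 UMIs there, 1572 (57.4%) came from pools 5 and 6, whose leukocyte-side levels were 1.11 and 1.39 UMIs per 10,000, and pool 18 followed at 0.610. The other 13 pools lay between 0.0311 and 0.251. Cells with at least 3 *Inhba* UMIs numbered 168, which is 1.15% of the leukocyte-side cells, and held 1983 UMIs (72.4%), in 10 of 16 pools. Of these cells 112 were in no class, 27 were granulocyte-gated, 15 osteoclast-gated and 11 monocyte-gated, and macrophage-, T cell- and B cell-gated cells held 1 each.

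In osteoclast-gated cells *Inhba* stood at 5.28 in pool 5 and 4.48 in pool 6, from 8 and 4 cells with at least 3 UMIs, and at 0 to 0.476 in the other 6 pools. Of the 7 osteoclast markers, 2 were lower in both of these pools than in each of the other 6: *Acp5*, the tartrate-resistant acid phosphatase, was at 11.5 and 12.0 UMIs per 10,000 against 32.2 to 104, and cathepsin K (*Ctsk*) at 21.6 and 16.8 against 41.8 to 69.3. The other 5 markers (*Mmp9*, *Atp6v0d2*, *Ocstamp*, *Dcstamp* and *Oscar*) overlapped between these pools and the rest. The part of the marker levels in that of *Inhba* was not tested.

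**Figure D5:**
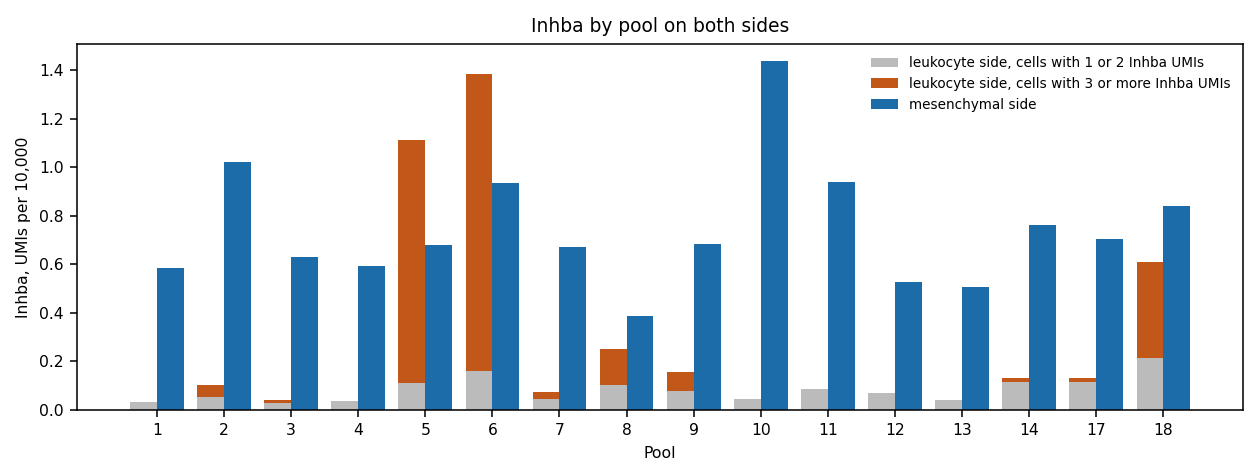
*Inhba* level (UMIs per 10,000) by pool on the mesenchymal side (blue) and the leukocyte side, the latter stacked by UMIs from cells with 1 or 2 (grey) and with 3 or more *Inhba* UMIs (orange). The leukocyte side exceeded the mesenchymal side in pools 5 and 6, and in these pools most of it came from cells with 3 or more.

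Within the members, the patterns over 11 classes (log2 of the class mean in UMIs per 10,000 plus 0.05, B cell-gated cells left out) were most alike for *Ltbp1* and *Tgfb2* (Pearson r = 0.957), *Ltbp3* and *Tgfb2* (0.934), *Ltbp3* and *Ltbp1* (0.929) and *Tgfb3* and *Tgfb2* (0.904). *Tgfbr1* and *Tgfbr2* were at 0.796, and *Tgfb1* was negative with each *Ltbp* gene (-0.663 to -0.396). These are descriptions over classes that share pools and fall into a mesenchymal and a leukocyte side. Correlations within a side were not computed, so the part of that split in these values was not tested. The highest value of *Inhba* with another member was 0.464, and that of *Tgfb1* was 0.486. The *Inhba* pattern includes the osteoclast-gated mean, which came from pools 5 and 6.

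Among 5460 other genes, those most like each member over the same 11 classes were, in order, *Atp1b3* (0.916), *Mia2* and *Smox* for *Tgfb1*, *Hcfc1r1* (0.977), *Ccdc80* and *Neo1* for *Tgfb2*, and *Cnn3* (0.970), *Npnt* and *Rock2* for *Tgfb3*. For the receptors they were 5031439G07Rik (0.986), *Tnfaip2* and *Zfand2a* (*Tgfbr1*), *Pi4k2a* (0.971), *Rab22a* and *Fabp7* (*Tgfbr2*), and *Ptgfr* (0.975), *Svep1* and *Esm1* (*Tgfbr3*), of which *Esm1* is itself a marker of the MALP gate. For the binding proteins they were *Rpl39l* (0.995), *Adamts2* and *Fat1* (*Ltbp1*), *Lmcd1* (0.985), *Wisp2* and *Mfap5* (*Ltbp2*), and *Rhod* (0.978), *Hes1* and *Neo1* (*Ltbp3*). *Inhba* had no close match over these class means, its nearest being *Edil3* (0.768), *Eno1b* (0.704) and *Cmtm4* (0.650). Its osteoclast-gated mean of 1.304 came from pools 5 and 6 (median 0.0878), and the part of that value in its correlations was not tested.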

How the data were processed

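Per the labels and the study's methods, pooled BMSC-OBs were captured with a 10x Chromium Single Cell 3′ kit, and the authors aligned and counted reads with Cell Ranger 5.0.0 (mm10, from the submitters' processing notes). The deposited values are counts, whole UMIs per gene and barcode, for called cells before any filter of the authors, and their doublet calls and mouse assignments were not used here. The 2 runs of a pool are the same library (84.5% to 99.8% of barcodes shared, r of log2 CPM at least 0.9997), so a pool counts once and run HHFFMCCX2 is an alternative. Total counts per pool and median UMIs per kept cell (2730 in pool 13 to 14939.5 in pool 5) set the precision.

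Of 107853 barcodes, 88909 had 400 to 6200 genes and at most 10% mitochondrial, 20% *Rpl* and 15% *Rps* UMIs; 5003 of these, 0.8% per 1000 barcodes of each pool, were removed as doublets by score against simulated doublets, leaving 83906. Cells were gated on mean marker levels: a side by a difference of 0.3 (3509 cells fell on neither), and a class by a mean z of at least 0.5, a margin of 0.3 over the next class and 3 detected markers; 33957 cells on a side fell in no class. Mesenchymal markers came from the study's own figure and tables, made from these mice. The members and lists were chosen with earlier results of these data known, and the gate's scoring rule was set after marker distributions were seen. Clusters (3000 variable genes without the members, 15 PCs, 20 neighbors, Louvain resolution 0.5; scanpy 1.11.5, python-igraph 0.11.9) served as alternative classes; the rule that a shallow cluster stays unnamed only with no own marker among its top 10 genes was applied after a first naming had been seen.

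Raw counts were summed per pool and class (at least 20 cells) and fitted with the quasi-likelihood method of edgeR 4.0.16 (R 4.3.3), after filterByExpr and TMM and with the pool as a block, over all genes, with Benjamini-Hochberg adjustment at 0.05. Classes of a pool share mice, and their deviations from the class means correlated (medians of 0.217 to 0.513 over comparisons, lowest 0.0917; other pools -0.0598 to -0.0152), so the block was kept. A pool is a replicate, and the p-values of class comparisons set a difference within pools against its variation from pool to pool. Levels are UMIs per 10,000 scaled by library size, without TMM, and can differ from the fitted log2 fold changes. Neighbouring classes were compared by exact permutation tests in Python 3.11.15. Genes other than the 10 members are named where they are among the 4 largest called log2 fold changes of the pathway list in a comparison, or the 3 highest correlations with a member. Intervals and UMI floors cover counting error only. Alternatives were the other run, DESeq2 1.42.0, no TMM, no low-count filter, no block, clusters, a stricter gate, doublets kept, at least 3000 UMIs, and pools left out.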

Additional observations from a re-analysis of the deposited data

Results flagged for a closer look

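In 20 groups of 4 to 10 pools the highest and lowest pool were set against the rest, and 3 stood apart by Dixon's criterion. Chance meets this criterion in about 1 of 20 groups of normally distributed values. The 3 flagged groups are low counts with pools at 0, so that rate need not hold for them. *Tgfb2* in T cell-gated cells was 0.132 UMIs per 10,000 in pool 6 as the highest of 4 pools, and *Ltbp2* in the same cells was 0.0659 in the same pool, the medians being 0.0112 and 0.00559. *Tgfb3* in osteoclast-gated cells was 0.0226 in pool 2 as the highest of 8 pools, 6 of which were at 0. All 3 values rest on few UMIs, and the cause was not tested.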

How the results depend on the processing

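Among the tests of members under alternatives, 612 kept their side of the threshold, 12 lost a call, 12 gained one and 4 turned sign with a call before or after. A change of sign with neither result called counts among the 612. Without TMM scaling *Tgfbr2* in LMP- against MALP-gated cells went to -0.0246, *Tgfbr1* in LMP- against OBP-gated cells to 0.0112 and *Ltbp3* there to 0.25, and with classes from clusters *Tgfbr2* in LMP- against MALP-gated cells went to -0.0209; the cause was not tested beyond the shift of the median that scaling gives. Without the pool as a block, 2772 genes were called between OB1- and Ocy-gated cells against 4304, and the block changed no other count by over 1.5 times. Of 56 levels, 5 moved by more than 1 SD between pools: with clusters *Tgfb2* (0.639) and *Ltbp3* (0.309) in Ocy, *Tgfb3* (0.529) and *Inhba* (1.39) in LMP, and with the stricter gate *Tgfb3* in LMP (0.968). Macrophage- against T cell-gated cells gave 3870 to 4280 calls with a pool left out, against 4431; this alternative and leaving out pools 5 and 6 were chosen after seeing the data. A pseudocount of 0.5 gave 22 steps between neighbouring classes in place of 23. OBP against OB1, OB1 against OB2 and OB1 against Ocy were not run on clusters, since no cluster was named OB1 or OB2. Levels of B cell- (2 pools), monocyte- (3), T cell- (4) and osteoclast-gated cells (8) rest on the fewest pools.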

Other observations

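The cells with at least 3 *Inhba* UMIs on the leukocyte side also carried more *Mmp12*, the macrophage metalloelastase, a gene picked after its values were seen. In the 5 pools with at least 5 such cells, their *Mmp12* level was 3.81 to 13.2 times (median 4.80) that of the other leukocyte-side cells, higher in 5 of 5 pools. Their median depth was higher too, at 9151.5 to 16652 UMIs against 4679 to 5608, and its part in the difference was not tested.

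Across the 16 pools, LMP-gated and MALP-gated levels of each of the 10 members were correlated, a comparison added after seeing the data. By Pearson's r 7 of 10 passed after adjustment and by Spearman's rho 1 of 10, *Ltbp1*. The share of all genes that would pass was not computed, so these counts do not set the members apart. Whether members differ from each other, or from other genes, in this was not tested. As background, a pool's deviations from the LMP and MALP class means also correlated across all genes tested (median 0.443, lowest 0.34 over the 16 pools). That correlation runs over genes and not over pools, so it does not give the missing share. *Ltbp1* had the closest relation, with Pearson's r = 0.750 and Spearman's rho = 0.750 (permutation tests, adjusted p = 0.00865 and 0.0122, 16 pools) and r = 0.775 without the 2 pools farthest from the median of the LMP level. *Tgfb2*, *Tgfbr1*, *Ltbp2* and *Ltbp3* had r of 0.536 to 0.614 (adjusted permutation p = 0.0195 to 0.0461) and rho of 0.456 to 0.618 (0.0539 to 0.109); without the 2 farthest pools r was 0.312, 0.465, 0.407 and 0.637, in that order of genes. *Tgfbr3* had r = 0.444 and rho = 0.497 (adjusted permutation p = 0.106 and 0.0907), with r = 0.172 without those pools. *Tgfb1* had r = 0.719 (adjusted permutation p = 0.00865) and rho = 0.571 (0.0581), with r = 0.472 without those pools. *Tgfbr2* had r = 0.544 and rho = 0.394 (adjusted permutation p = 0.0461 and 0.165) and rested on 2 pools, with r = 0.0128 without them. For *Inhba* (r = 0.198, rho = 0.0765, adjusted permutation p = 0.516 and 0.778) and *Tgfb3* (r = 0.155, rho = 0.115, adjusted permutation p = 0.564 and 0.748) no relation was detected. Pools differ in mice, depth and culture at once, which cannot be told apart here.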
